A study of Mus musculus with 12 samples.

Results

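The 40 genes described here carry fatty acids into cells, activate and oxidise them in mitochondria, store and release them as triglyceride, use ketone bodies and acetate, or regulate these steps. They were chosen by name and were all found among the 55679 genes of the deposited gene table, which marks 37 of them as detected and Bdh1, Esrrg and Ppargc1b as not. All 40 passed the filter on low values in every comparison. RNA came from heart and lung tissue of 6 male mice of strain 129S6/SvEvTac, aged 9 to 13 weeks, with 3 mice wild type (WT) for Adam19 and 3 homozygous for an allele in which a tdTomato construct replaces exons 6 and 7 of Adam19 (KO). The allele was not made for a single tissue, so heart and lung of a KO mouse both carry it, and no other allele or treatment is given for any group. Each mouse gave 1 library of each tissue, which makes 12 libraries in 4 groups of 3. A lung and a heart library with the same genotype and replicate number come from 1 mouse.

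Long-chain fatty acids are released from circulating lipoproteins by lipoprotein lipase, taken up with the help of CD36 and fatty acid transport proteins, and bound in the cytosol by fatty acid binding proteins. Acyl-CoA synthetases activate them, the carnitine shuttle carries them into mitochondria, and each turn of beta-oxidation shortens the chain and passes electrons to the respiratory chain. The working heart takes most of its energy from this route, whereas the lung holds lipid-handling alveolar cells and macrophages that also make and store lipid.

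The start regions of 5 genes to which the comparisons below return are shown first, each with 250 bases before and 50 bases after a transcript start, on GRCm39. Those of Hadhb, Fabp3, Esrrg and the downstream start of Acacb come from RefSeq windows (build GRCm38.p6) that were matched without a mismatch to a single place on GRCm39, and that of the upstream start of Acacb was read from the GRCm39 genome at the annotated start of a transcript. Hadha and Hadhb, which encode the alpha and beta subunits of the mitochondrial trifunctional protein, lie head to head on chromosome 5, with RefSeq starts 273 bases apart, so that the window of Hadhb (chr5:30360001-30360300, forward strand) shares 228 bases with that of Hadha (chr5:30359929-30360228, reverse strand). Those shared bases are in capitals in the first line. In the other lines capitals mark the 50 bases from the RefSeq or annotated start onwards. The Fabp3 window (chr4:130202281-130202580, forward strand) belongs to the gene with the largest difference between the tissues among the 40, and its RefSeq start lies 143 bases downstream of the start of the only listed Fabp3 transcript. The Acacb windows (chr5:114284057-114284356 and chr5:114303329-114303628, forward strand) and the Esrrg windows (chr1:187340953-187341252 and chr1:187729774-187730073, forward strand) are shown because the shares of the transcripts that begin at or near them are described below.
Hadhb start: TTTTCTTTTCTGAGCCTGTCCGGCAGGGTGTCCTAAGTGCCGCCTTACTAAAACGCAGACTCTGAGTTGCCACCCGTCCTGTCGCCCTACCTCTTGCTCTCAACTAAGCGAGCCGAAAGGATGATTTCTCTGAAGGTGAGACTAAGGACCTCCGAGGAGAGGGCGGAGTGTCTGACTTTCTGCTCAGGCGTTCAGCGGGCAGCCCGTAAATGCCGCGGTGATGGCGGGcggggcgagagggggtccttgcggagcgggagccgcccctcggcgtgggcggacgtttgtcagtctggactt
Fabp3 start: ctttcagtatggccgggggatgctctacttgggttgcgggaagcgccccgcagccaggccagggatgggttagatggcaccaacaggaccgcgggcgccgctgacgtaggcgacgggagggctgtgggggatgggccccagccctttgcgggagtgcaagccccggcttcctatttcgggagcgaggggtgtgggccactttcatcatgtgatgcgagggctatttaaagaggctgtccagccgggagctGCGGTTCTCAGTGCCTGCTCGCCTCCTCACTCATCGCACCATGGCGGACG
Acacb upstream start: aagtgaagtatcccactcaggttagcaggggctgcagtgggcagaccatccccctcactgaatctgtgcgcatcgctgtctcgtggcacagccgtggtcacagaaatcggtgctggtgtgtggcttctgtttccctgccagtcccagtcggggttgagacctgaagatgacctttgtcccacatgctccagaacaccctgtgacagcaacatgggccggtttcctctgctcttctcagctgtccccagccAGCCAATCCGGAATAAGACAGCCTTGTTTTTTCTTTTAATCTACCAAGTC
Acacb downstream start: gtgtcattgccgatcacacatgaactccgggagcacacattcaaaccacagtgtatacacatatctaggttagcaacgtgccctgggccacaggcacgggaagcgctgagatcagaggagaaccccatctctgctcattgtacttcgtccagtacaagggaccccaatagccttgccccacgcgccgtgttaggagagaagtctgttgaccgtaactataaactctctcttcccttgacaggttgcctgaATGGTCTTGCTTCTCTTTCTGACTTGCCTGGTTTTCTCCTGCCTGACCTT
Esrrg upstream start: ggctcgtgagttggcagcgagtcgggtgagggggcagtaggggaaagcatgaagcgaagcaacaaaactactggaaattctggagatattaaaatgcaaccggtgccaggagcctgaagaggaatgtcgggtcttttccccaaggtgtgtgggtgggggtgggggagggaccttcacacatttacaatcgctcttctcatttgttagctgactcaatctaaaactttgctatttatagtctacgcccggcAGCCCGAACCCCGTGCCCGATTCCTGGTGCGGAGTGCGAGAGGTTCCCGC
Esrrg downstream start: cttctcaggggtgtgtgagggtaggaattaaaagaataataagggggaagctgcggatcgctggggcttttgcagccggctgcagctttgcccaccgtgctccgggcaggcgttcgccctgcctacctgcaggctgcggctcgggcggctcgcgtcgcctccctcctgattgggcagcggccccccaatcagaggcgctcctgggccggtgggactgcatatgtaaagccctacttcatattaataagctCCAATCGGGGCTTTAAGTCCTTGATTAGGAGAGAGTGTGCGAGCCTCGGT

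The libraries held between 17674788 and 35862932 estimated counts. Adam19 itself lay between 9.12 and 9.41 in WT lungs and between 3.21 and 4.44 in KO lungs, and between 9.17 and 10.27 in WT hearts and 6.01 and 6.67 in KO hearts, on the log2 scale of the deposited gene values used throughout. The 9 cardiomyocyte markers summed to between 20.98 and 21.26 in hearts and 13.64 and 14.91 in lungs, and the 6 alveolar type 2 markers to between 17.63 and 18.27 in lungs and 10.12 and 10.70 in hearts, so each tissue carried its own defining markers. The 7SL RNA gene Rn7s1 took 2.10 to 34.0% of the summed abundance in lungs and 2.70 to 11.8% in hearts. WT lung replicate 3 had the lowest share and stood apart for 8 members, which lay more than 0.5 from their group mean.

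**Figure D1:**
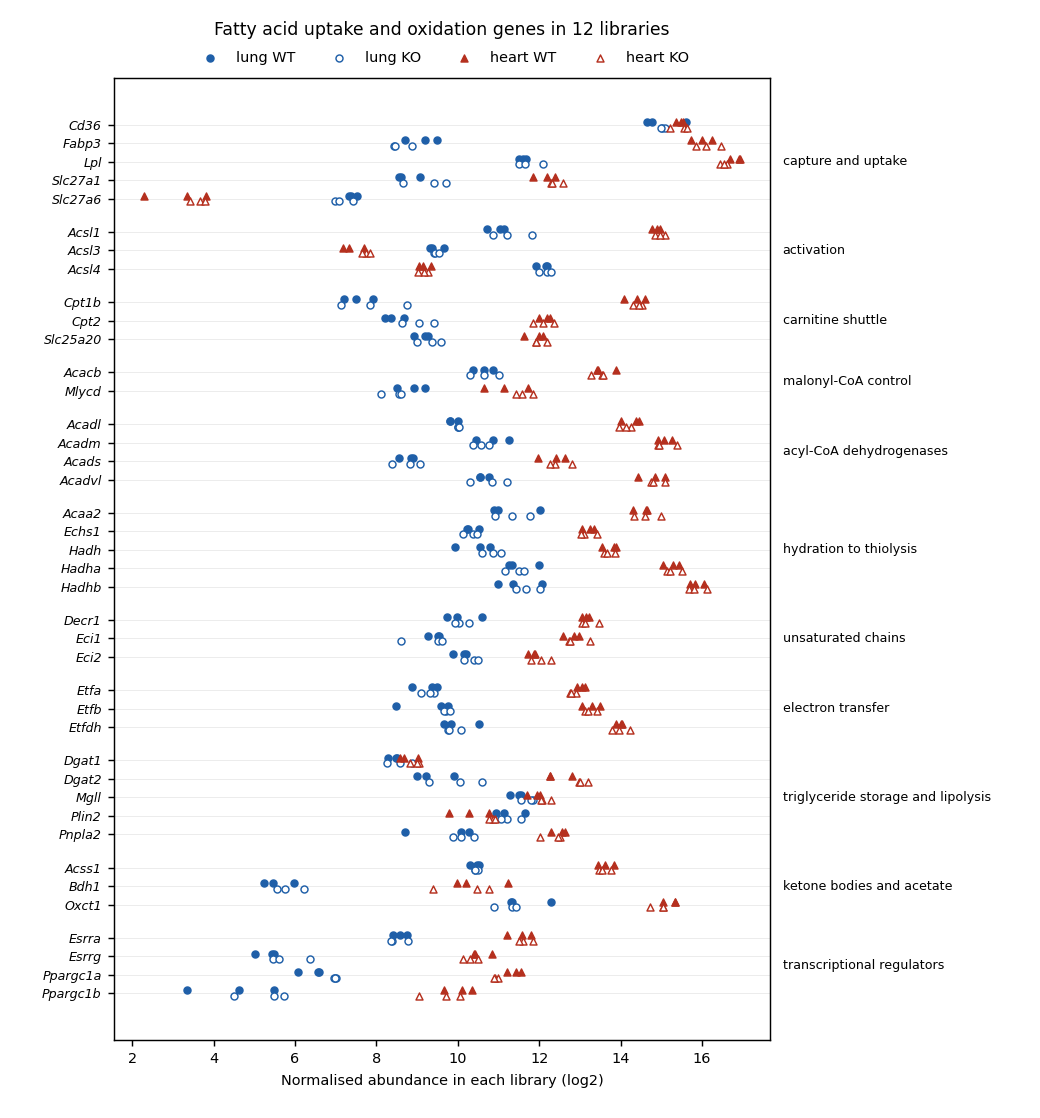
Normalised abundance (log2, horizontal axis) of each of the 40 genes in each of the 12 libraries, ordered by role. Blue circles are lungs and red triangles hearts, filled for WT and open for KO; the red points lie to the right for most genes, and to the left for Slc27a6, Acsl3, Acsl4 and Plin2.

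Most of the genes were lower in lung than in heart. In WT mice 37 of the 40 differed by the thresholds of the study, which are an adjusted p under 0.05, at least 1.5-fold and a group mean of at least 6 (limma), beside 50.2% of the 16636 genes tested. Of these, 33 were lower in lung, beside 20.5% of all genes, and 4 were higher in lung (Slc27a6, Acsl4, Acsl3 and Plin2), beside 29.7%. The median difference of the 40 genes was −3.38 on the log2 scale, against 0.30 over all genes tested. The lung and heart libraries did not overlap for 39 of the 40, beside 68.7% of all genes, and the exception was Cd36. Whether a lower value reflects fewer cells of a type or less RNA per cell cannot be told apart in tissue of mixed cells.

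**Figure D2:**
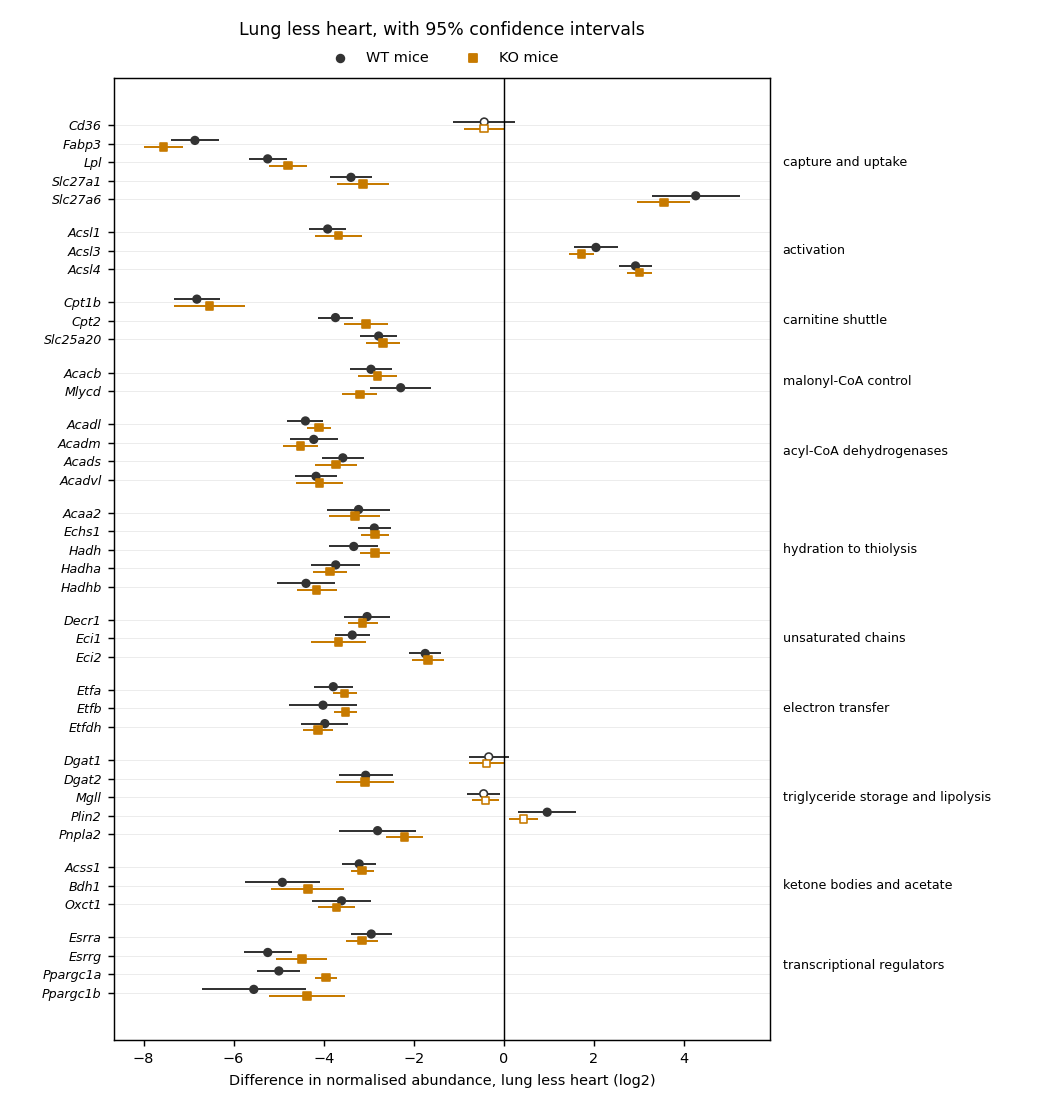
Difference in normalised abundance, lung less heart (log2, horizontal axis), for each of the 40 genes in WT (circles) and KO (squares) mice, with 95% confidence intervals. Filled symbols passed the thresholds; 33 genes lie to the left of 0 with filled symbols in each genotype.

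The proteins that capture fatty acids and take them into the cell held both the largest fall and one of the smallest differences. Fabp3, the cytosolic fatty acid binding protein of muscle, stood at 9.18, 8.71 and 9.49 in WT lungs and at 15.99, 15.74 and 16.23 in WT hearts. The groups were far apart, with a log2 difference of −6.86 (SE 0.23, adjusted p = 2.81e-07), or 116-fold. Fabp3 has a listed near-identical copy, Fabp3-ps1, and adding its counts left the difference within 0.01. Lpl, the lipase that frees fatty acids from lipoproteins, stood at 11.60, 11.51 and 11.67 in WT lungs and at 16.68, 16.90 and 16.93 in WT hearts, a difference of −5.24 (SE 0.18, adjusted p = 3.04e-07). Slc27a1, a fatty acid transport protein with acyl-CoA synthetase activity, was lower in lung by −3.40 (SE 0.21, adjusted p = 3.35e-06).

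Cd36, the membrane receptor that takes up long-chain fatty acids, was high in both tissues. It stood at 14.65, 14.78 and 15.61 in WT lungs and at 15.53, 15.47 and 15.36 in WT hearts, so that WT lung replicate 3 lay above all WT hearts. The difference of −0.44 (SE 0.30, adjusted p = 0.230) did not pass. Without WT lung replicate 3 it was −0.74 with an adjusted p of 0.0165 and passed the thresholds. In KO mice the lungs lay between 14.98 and 15.10 and the hearts between 15.21 and 15.64, a difference of −0.44 (adjusted p = 0.0716). The 5 endothelial markers, cells in which CD36 is abundant, summed to between 15.17 and 15.30 in lungs and between 13.43 and 13.56 in hearts, and their part in the level of Cd36 was not tested.

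Slc27a6, another fatty acid transport protein, went the other way. It stood at 7.33, 7.52 and 7.36 in WT lungs and at 3.81, 3.34 and 2.29 in WT hearts, where the values rest on low estimated counts. The difference was 4.26 (SE 0.43, adjusted p = 5.2e-05). In KO mice it was 3.55 (SE 0.25, adjusted p = 5.26e-06), with lungs between 6.99 and 7.44 and hearts between 3.41 and 3.79.

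The 3 acyl-CoA synthetases, which activate fatty acids by joining them to coenzyme A, split between the tissues. Acsl1, the main isoform of heart muscle, stood at 11.04, 10.71 and 11.14 in WT lungs and at 14.89, 14.77 and 14.97 in WT hearts, a difference of −3.91 (SE 0.18, adjusted p = 8.34e-07). Acsl4, which prefers arachidonic acid, stood at 11.92, 12.18 and 12.19 in WT lungs and at 9.15, 9.34 and 9.04 in WT hearts. It was higher in lung by 2.92 (SE 0.16, adjusted p = 1.86e-06), or 7.57-fold. Acsl3, an isoform of the endoplasmic reticulum and of lipid droplets, stood at 9.66, 9.31 and 9.37 in WT lungs and at 7.19, 7.69 and 7.33 in WT hearts, a difference of 2.04 (SE 0.21, adjusted p = 6.02e-05). In KO mice the differences were −3.67 for Acsl1, 3.01 for Acsl4 and 1.72 for Acsl3, and all passed.

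All 3 members of the carnitine shuttle were lower in lung. Cpt1b, the muscle isoform of the outer-membrane carnitine palmitoyltransferase that limits entry into mitochondria, stood at 7.93, 7.19 and 7.51 in WT lungs and at 14.39, 14.08 and 14.60 in WT hearts. The difference was −6.82 (SE 0.22, adjusted p = 2.62e-07), or 113-fold, and adding the counts of a listed copy (Gm44502) left it within 0.01. Slc25a20, the carnitine-acylcarnitine carrier of the inner membrane, differed least, with 9.18, 8.93 and 9.26 in WT lungs and 11.99, 11.63 and 12.09 in WT hearts, a difference of −2.78 (SE 0.18, adjusted p = 4.44e-06). Cpt2, which returns the acyl group to coenzyme A inside, differed by −3.74 (SE 0.17, adjusted p = 9.68e-07). Cpt1a, the other isoform of the outer-membrane step and no member, was 0.51 higher in WT lung (adjusted p = 0.0531) and 0.34 higher in KO lung (adjusted p = 0.0200), below 1.5-fold. Both members that act on malonyl-CoA, the inhibitor of CPT1, were lower in lung. Mlycd, which breaks malonyl-CoA down, stood at 8.93, 8.51 and 9.19 in WT lungs and at 11.14, 10.64 and 11.73 in WT hearts (difference −2.29, SE 0.29, adjusted p = 0.000208). Acacb, which makes it at the mitochondrial surface, stood at 10.86, 10.65 and 10.37 in WT lungs and at 13.43, 13.41 and 13.89 in WT hearts (difference −2.95, SE 0.20, adjusted p = 5.96e-06). Acaca, which makes malonyl-CoA in the cytosol and is no member, was at 1.04 in WT (adjusted p = 0.118) and 0.70 in KO mice (adjusted p = 0.178) and did not pass.

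The enzymes of the beta-oxidation spiral moved within a narrow range. The 4 acyl-CoA dehydrogenases, which open each turn for chains of different length, differed by between −4.41 (Acadl, long chains) and −3.58 (Acads, short chains) in WT mice, with Acadm (medium chains) at −4.22 and Acadvl (very long chains) at −4.17. Acadl stood at 9.81, 9.80 and 10.01 in WT lungs and at 14.00, 14.46 and 14.38 in WT hearts (SE 0.17, adjusted p = 4.91e-07), and Acads at 8.90, 8.56 and 8.85 against 12.41, 11.98 and 12.64 (SE 0.20, adjusted p = 2.41e-06). The steps from hydration to thiolysis differed by between −4.39 and −2.88. Hadhb stood at 11.35, 10.99 and 12.06 in WT lungs and at 16.05, 15.71 and 15.82 in WT hearts, a difference of −4.39 (SE 0.28, adjusted p = 4.29e-06). Its partner Hadha, whose start window overlaps that of Hadhb in the capitals above, stood at 11.34, 11.25 and 11.99 in WT lungs and at 15.28, 15.04 and 15.44 in WT hearts, a difference of −3.73 (SE 0.24, adjusted p = 4.26e-06). Within a library Hadhb less Hadha was between −0.26 and 0.53 in the 6 lungs and between 0.38 and 0.76 in the 6 hearts. Echs1, the short-chain enoyl-CoA hydratase, differed least of this group, with 10.25, 10.24 and 10.52 in WT lungs and 13.35, 13.04 and 13.25 in WT hearts (difference −2.88, SE 0.16, adjusted p = 2.17e-06). Hadh, the short-chain hydroxyacyl-CoA dehydrogenase, differed by −3.33 and Acaa2, a thiolase, by −3.23. Hadhb has 2 listed near-identical copies, Hadhb-ps and Gm9108, and a Hadha transcript shares 537 identical bases with one of Garem2, another gene. Adding their counts moved no difference by 0.01.

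Of the auxiliary enzymes for unsaturated chains, Eci2, an enoyl-CoA isomerase found also in peroxisomes, differed least, with 10.16, 10.21 and 9.88 in WT lungs and 11.86, 11.73 and 11.90 in WT hearts (difference −1.75, SE 0.15, adjusted p = 2.41e-05). Eci1, the mitochondrial isomerase, stood at 9.55, 9.26 and 9.51 in WT lungs and at 12.85, 12.58 and 12.99 in WT hearts (difference −3.37, SE 0.17, adjusted p = 1.28e-06). Decr1, the dienoyl-CoA reductase, differed by −3.04. The genes that pass electrons from the dehydrogenases to ubiquinone differed by nearly the same amount, Etfa by −3.79, Etfb by −4.02 and Etfdh by −3.98. Etfb stood at 9.60, 9.75 and 8.47 in WT lungs and at 13.30, 13.05 and 13.50 in WT hearts (SE 0.32, adjusted p = 1.53e-05), and Etfa at 9.50, 9.36 and 8.88 against 12.92, 13.13 and 13.05 (SE 0.19, adjusted p = 1.34e-06). WT lung replicate 3 was the lowest of its group for both.

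Triglyceride storage and lipolysis was the group with the smallest median difference, −0.45 in WT mice, and its 5 genes went in both directions. Dgat2, which makes triglyceride, stood at 9.90, 9.0 and 9.21 in WT lungs and at 12.80, 12.27 and 12.26 in WT hearts, a difference of −3.07 (SE 0.26, adjusted p = 2.11e-05). Dgat1, which catalyses the same step, stood at 8.49, 8.28 and 8.51 in WT lungs and at 9.03, 8.59 and 8.67 in WT hearts. Its difference of −0.34 (SE 0.19, 95% confidence interval −0.78 to 0.11, adjusted p = 0.160) did not pass. In KO mice the Dgat1 difference was −0.38 (adjusted p = 0.0740, limma) with the deposited gene values and did not pass. With the listed transcripts summed in their place it was −0.85 (adjusted p = 0.00273, limma) and passed. Plin2, the coat protein of lipid droplets, stood at 11.14, 10.93 and 11.64 in WT lungs and at 10.77, 9.79 and 10.27 in WT hearts. It was higher in lung by 0.96 (SE 0.28, adjusted p = 0.0158), with no overlap, but by 0.76 (adjusted p = 0.0553) without WT lung replicate 3 and by 0.72 (adjusted p = 0.0536) without WT heart replicate 2. In KO mice Plin2 lay between 11.07 and 11.56 in lungs and between 10.75 and 10.91 in hearts, a difference of 0.44 (adjusted p = 0.0214) that is below 1.5-fold. Pnpla2, the first lipase of triglyceride breakdown, differed by −2.80 (SE 0.37, adjusted p = 0.000266), with WT lung replicate 3 at 8.71 against 10.26 and 10.08 in the other WT lungs. Mgll, the lipase of the last step, differed by −0.45 (SE 0.16, adjusted p = 0.0355), below 1.5-fold.

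The direction for Cd36, Mgll and Dgat1, and the calls for Cd36, Mgll and Plin2, depended on the scaling between libraries. The median of all genes was 0.30 in WT and 0.28 in KO mice as deposited, 0.07 and 0.09 with median-of-ratios scaling, and 0.90 and 0.87 with scaling to totals without 7SL, 7SK, ribosomal and mitochondrial RNA. Under the last of these, Cd36 was 0.15, Dgat1 0.25 and Mgll 0.13 higher in WT lung, and 0.14, 0.20 and 0.17 higher in KO lung, and none of these passed, while Plin2 rose to 1.55 in WT and to 1.017 in KO mice (adjusted p = 0.000209), where it then passed. With median-of-ratios scaling Mgll passed in both genotypes, at −0.67 in WT (adjusted p = 0.00785) and −0.59 in KO mice (adjusted p = 0.00391), and Cd36 passed in KO mice at −0.62 (adjusted p = 0.0201). The other 37 genes kept their direction.

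The 3 genes of ketone body and acetate metabolism were lower in lung. Bdh1, which interconverts the main ketone bodies, stood at 5.98, 5.23 and 5.45 in WT lungs and at 11.24, 9.98 and 10.19 in WT hearts (difference −4.92, SE 0.36, adjusted p = 9.38e-06). Oxct1, the enzyme that activates ketone bodies for use, differed by −3.61 (SE 0.28, adjusted p = 1.28e-05). Acss1, the mitochondrial acetyl-CoA synthetase, stood at 10.29, 10.46 and 10.52 in WT lungs and at 13.63, 13.44 and 13.85 in WT hearts (difference −3.21, SE 0.16, adjusted p = 1.49e-06). Acss2, its cytosolic counterpart and no member, was at 0.06 in WT (adjusted p = 0.787) and −0.26 in KO mice (adjusted p = 0.194).

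The transcriptional regulators of this programme, the coactivators PGC-1 alpha and beta and the oestrogen-related receptors alpha and gamma, had a median difference of −5.12 in WT mice. Ppargc1a stood at 6.06, 6.59 and 6.56 in WT lungs and at 11.21, 11.56 and 11.43 in WT hearts (difference −5.00, SE 0.21, adjusted p = 5.87e-07). Ppargc1b stood at 4.63, 5.47 and 3.34 in WT lungs and at 9.66, 10.09 and 10.34 in WT hearts (difference −5.55, SE 0.50, adjusted p = 2.82e-05). Its WT lungs were spread more widely than those of the other regulators. Esrrg stood at 5.03, 5.48 and 5.43 in WT lungs and at 10.40, 10.85 and 10.43 in WT hearts (difference −5.24, SE 0.23, adjusted p = 7.65e-07). Esrra stood at 8.76, 8.59 and 8.40 in WT lungs and at 11.58, 11.21 and 11.80 in WT hearts (difference −2.94, SE 0.20, adjusted p = 5.48e-06). A transcript of Esrra shares an identical stretch of 1042 bases with one of Trmt112. Trmt112 is another gene, between 8.38 and 8.92 in WT lungs and between 8.24 and 9.11 in WT hearts. With all counts of both genes summed, the difference was −2.07 in WT and −2.41 in KO mice, against −2.94 and −3.15 for Esrra alone. The sum includes the RNA of Trmt112 itself and does not measure Esrra.

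KO lung and KO heart differed in the same way, as a second set of mice. There 36 of the 40 passed, beside 53.2% of the 16802 genes tested, 33 of them lower in lung, beside 22.3%, and 3 higher (Slc27a6, Acsl3 and Acsl4), beside 30.9%. The libraries of the tissues did not overlap for 39 of the 40, beside 77% of all genes. Fabp3 had the largest difference again, at −7.56 (SE 0.19, adjusted p = 5.02e-08), followed by Cpt1b at −6.54 (SE 0.35, adjusted p = 1.06e-06), and the median of the 40 genes was −3.25, against 0.28 over all genes.

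Hadhb less Hadha, given above, was not corrected for length. Apart from it, levels of different genes are compared only per length, as each gene's share of the summed level per length of the 40 genes in the library. In WT lungs Cd36 alone held 38.1% ± 6.55 (SD, n = 3), with 32.4, 36.7 and 45.3% in the replicates, and the next, Acaa2, held 4.48% ± 0.933 (SD, n = 3). In WT hearts Cd36 held 5.19% ± 0.722 (SD, n = 3), while Fabp3 held 24.2% ± 1.74, Lpl 9.76% ± 1.06 and Hadhb 9.28% ± 1.09 (SD, n = 3 each). In the lungs Fabp3 held 2.08% ± 0.291 (SD, n = 3), which put it at rank 16 of the 40. By role, capture and uptake held a similar part in both tissues, 43.3% ± 5.91 in WT lungs and 39.6% ± 1.20 in WT hearts, although through Cd36 in the former and through Fabp3 and Lpl in the latter. Triglyceride storage and lipolysis held 10.02% ± 1.94 in lung and 2.43% ± 0.162 in heart, and the acyl-CoA dehydrogenases 7.06% ± 0.887 and 12.9% ± 0.551 (WT mice, SD, n = 3 each). Shares are parts of a whole, so a rise in one lowers the others.

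**Figure D3:**
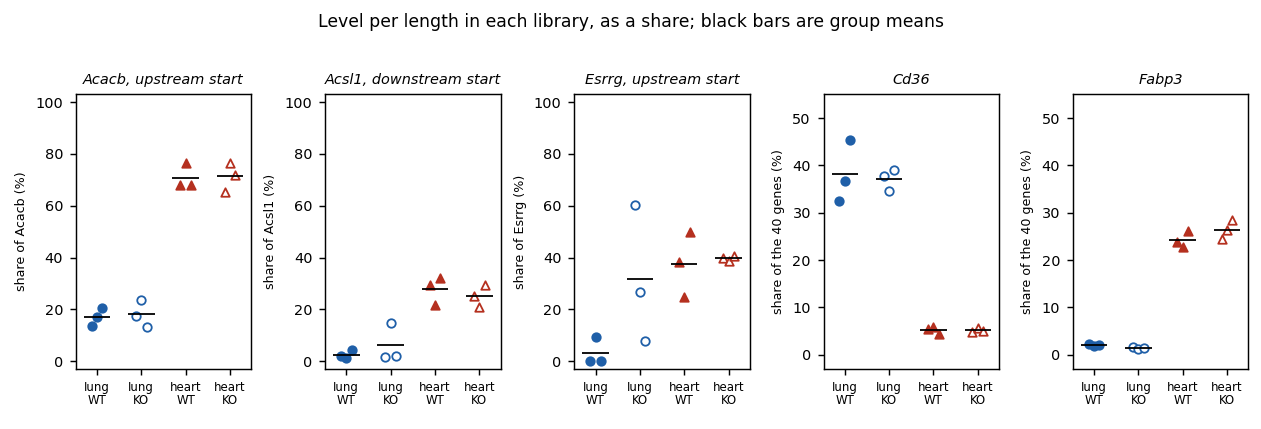
Share (%, vertical axis) of the gene's level per length held by 1 transcript in each library (from the upstream start of Acacb, a downstream start of Acsl1 and the upstream start of Esrrg), and of the 40 genes' level per length held by Cd36 and by Fabp3. Points are libraries and black bars group means of 3; the Acacb transcript and Fabp3 are high in all hearts, Cd36 in all lungs.

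Like the genes, most of the members' transcripts were lower in lung. Of those tested in WT mice, 65 of 110 passed the same thresholds (6 higher and 59 lower in lung), beside 29% of all transcripts, and in KO mice 68 of 125, beside 37.2%. These counts follow the genes and say nothing of which starts were used, for which shares of single transcripts are given as a description. The Acacb transcript from the upstream start shown above held 17.0% ± 3.52 (SD, n = 3) of the Acacb level per length in WT lungs. In WT hearts it held 70.9% ± 4.95 (SD, n = 3). The ranges did not overlap, and the shares were 18.2% and 71.3% in KO mice. The transcript itself was lower in WT lung by −5.08 on the log2 scale (SE 0.16, adjusted p = 4.28e-05). The Acacb transcript from the downstream start, 19.3 kb away, was lower by −2.75 (SE 0.49, adjusted p = 0.00692), and its share, 27.5% ± 9.27 in lung and 22.6% ± 6.16 in heart (WT mice, SD, n = 3 each), overlapped between the tissues. Of the 5 transcripts listed for Acacb, those not described here held the rest, which was most of the level in WT lung and little in WT heart. The shares therefore do not show a choice between these starts alone. An Acsl1 transcript that begins 17.7 kb downstream of the most abundant one held 2.50% ± 1.49 of Acsl1 in lung and 27.8% ± 5.43 in heart (WT mice, SD, n = 3 each), whereas the most abundant one held 90.1% and 70.9%. The Esrrg transcript whose annotated start lies 23 bases from the upstream start shown held 3.15% ± 5.46 in lung and 37.6% ± 12.7 in heart (WT mice, SD, n = 3 each). The one from the downstream start, 389 kb away, held 96.8% and 51.6%. In KO lungs the upstream Esrrg transcript held 60.3, 26.7 and 7.91%, so its share in lung, where Esrrg is low, varied widely between libraries. Shares of transcripts are the authors' estimates, in which overlapping transcripts divide reads between them.

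Start windows of RefSeq were found for 32 of the 40 genes, and motifs were searched in them by exact letters on both strands. The oestrogen-related receptor element TCAAGGTCA was in none of the 32, beside 0.466% of all 27025 genes in the table, and the direct repeat AGGTCANAGGTCA was in none, beside 0.0481%. Its hexamer AGGTCA, which is also the end of the longer letters, was in 6 of the 32 (Acacb, Acadm, Acadvl, Cd36, Echs1 and Plin2), beside 18.1% of genes. The NRF1 element GCGCNTGCGC was in 2 of the 32, beside 5.19%, from −128 to −119 of the start in Etfdh and from −11 to −2 in Etfb. Dgat1, Lpl, Decr1, Slc27a6, Ppargc1b, Cpt1b, Acaa2 and Dgat2 have no window in the table.

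The question of the study, what loss of Adam19 changes, was asked of the 40 genes in each tissue. In the lung none of the 40 passed, beside 0.0665% of 16551 genes, and the lowest adjusted p was 0.806 (limma). At an unadjusted p under 0.05 there were 3 of the 40 (limma), beside 5.93% of all genes, and limma-voom also called none. The estimate was above 0 for 28 of the 40, beside 51.6%, and the KO and WT lungs did not overlap for 1, Ppargc1a, beside 12.8%. The half-widths of the 95% confidence intervals ran from 0.32 to 1.29 on the log2 scale, and 28 of the 40 intervals lay within −1 and 1.

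Cpt2 stood at 8.64, 9.41 and 9.04 in KO lungs and at 8.68, 8.35 and 8.21 in WT lungs, with 1 KO lung below 1 WT lung. The difference was 0.62 (95% confidence interval 0.09 to 1.14, adjusted p = 0.806). Ppargc1a stood at 7.01, 6.96 and 6.99 in KO lungs, all above the WT lungs at 6.06, 6.59 and 6.56, a difference of 0.58 (95% confidence interval 0.07 to 1.09, adjusted p = 0.806). Fabp3 stood at 8.87, 8.43 and 8.45 in KO lungs and at 9.18, 8.71 and 9.49 in WT lungs, a difference of −0.55 (95% confidence interval −1.08 to −0.02, adjusted p = 0.828). The 4 brown adipocyte markers, a cell type rich in these genes, summed to 8.98, 6.19 and 9.48 in WT lungs and to 8.85, 10.92 and 6.96 in KO lungs, with none of them at 0 throughout a group. KO lung replicate 2, with the highest sum, was the highest KO lung for 29 of the 40 genes, and KO lung replicate 3 and WT lung replicate 2, with the lowest sums of their groups, were the lowest for 24 and 21. WT lung replicate 3, with the highest sum of the WT lungs, was the highest of them for 19 and the lowest for 12. Fabp3, in contrast, was lowest in KO lung replicate 2. The 7 skeletal muscle markers summed to 11.95 in WT lung replicate 2 and to between 8.11 and 9.32 in the other lungs. The 9 cardiomyocyte markers summed to 14.30, 14.09 and 14.91 in WT lungs and to 14.14, 13.69 and 13.64 in KO lungs. The share of Rn7s1 was 34.0, 29.9 and 2.10% in WT lungs and 10.5, 3.22 and 20.3% in KO lungs. It was lowest in the replicate with the highest brown adipocyte sum of each genotype. How often each library was the highest or lowest over all genes was not counted. The part of these cells, or of the Rn7s1 share, in the spread was not tested. Without WT lung replicate 2 and KO lung replicate 2, an alternative added after the data were seen, none of the 40 passed either.

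**Figure D4:**
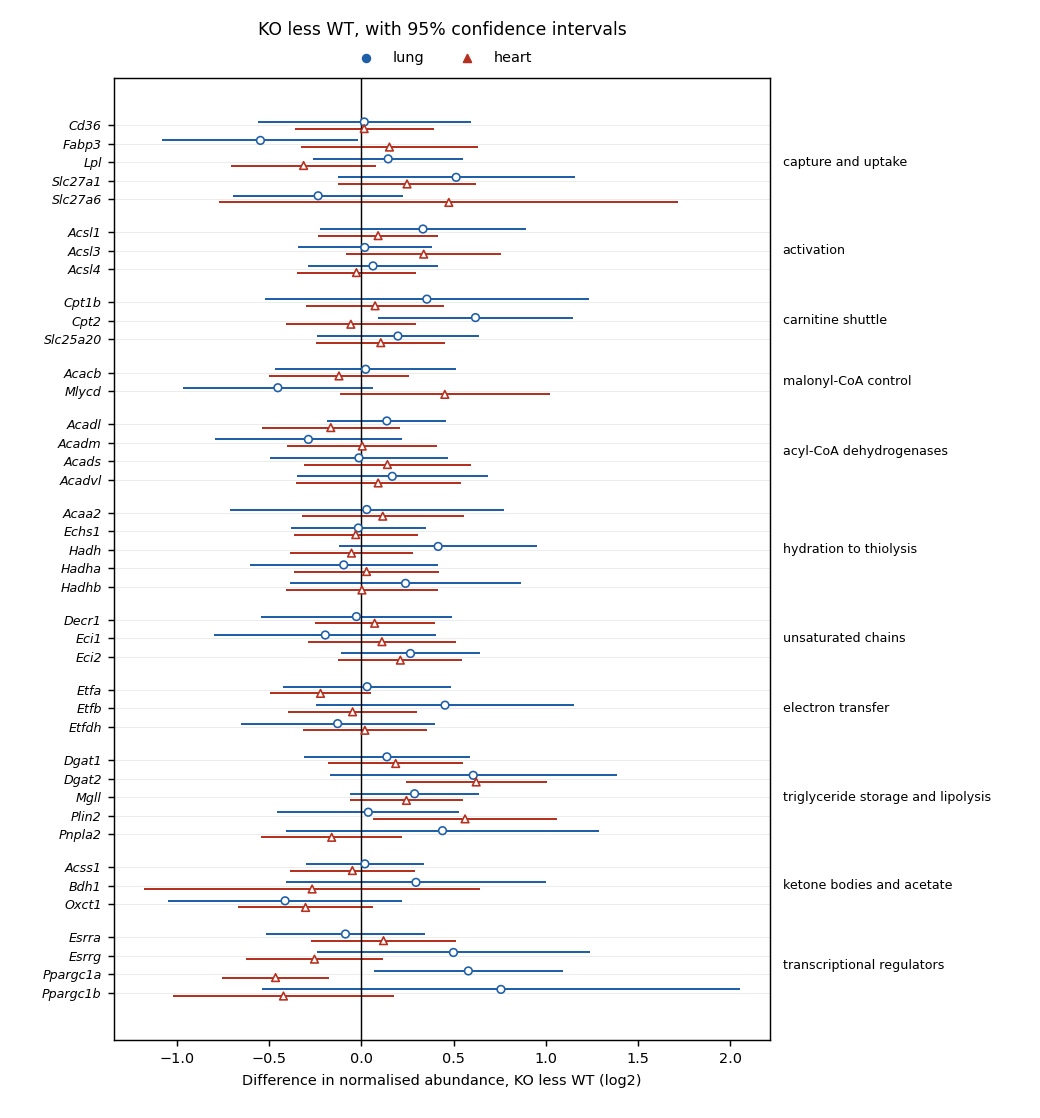
Difference in normalised abundance, KO less WT (log2, horizontal axis), for each of the 40 genes in lung (circles) and heart (triangles), with 95% confidence intervals. All symbols are open because none passed the thresholds; the intervals of Ppargc1a lie above 0 in lung and below 0 in heart.

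In the heart none of the 40 passed, beside 0.085% of 15303 genes, with a lowest adjusted p of 0.481 (limma). At an unadjusted p under 0.05 there were again 3 (limma), beside 7.46% of all genes, and limma-voom called none. The estimate was above 0 for 24, beside 55%, and for 19 with median-of-ratios scaling. The KO and WT hearts did not overlap for 6 of the 40, beside 13% of all genes. These were Dgat2 and Mgll, higher in KO, and Ppargc1a, Oxct1, Etfa and Lpl, lower in KO. The median SE was 0.17, against 0.23 in the lung, although some genes such as Slc27a6 and Bdh1 had a larger SE in heart, and 34 of the 40 intervals lay within −1 and 1.

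Dgat2 stood at 13.21, 12.98 and 13.01 in KO hearts and at 12.80, 12.27 and 12.26 in WT hearts, a difference of 0.62 (95% confidence interval 0.24 to 1.01, adjusted p = 0.481). Ppargc1a stood at 10.92, 10.998 and 10.90 in KO hearts and at 11.21, 11.56 and 11.43 in WT hearts, a difference of −0.46 (95% confidence interval −0.75 to −0.17, adjusted p = 0.481). Plin2 stood at 10.85, 10.75 and 10.91 in KO hearts and at 10.77, 9.79 and 10.27 in WT hearts, a difference of 0.56 (95% confidence interval 0.06 to 1.06, adjusted p = 0.641). Its KO and WT hearts overlapped at 10.75 and 10.77. Lpl was between 16.44 and 16.60 in KO hearts and between 16.68 and 16.93 in WT hearts, a difference of −0.31 (adjusted p = 0.734). The adipocyte markers, 6 genes, summed to 11.996, 10.71 and 8.66 in WT hearts and to 12.10, 9.44 and 10.93 in KO hearts, and their part was not tested. None of the members' transcripts passed between the genotypes, of 101 tested in the lung, beside 0.1% of all transcripts, and of 123 in the heart, beside 0.0625%.

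**Figure D5:**
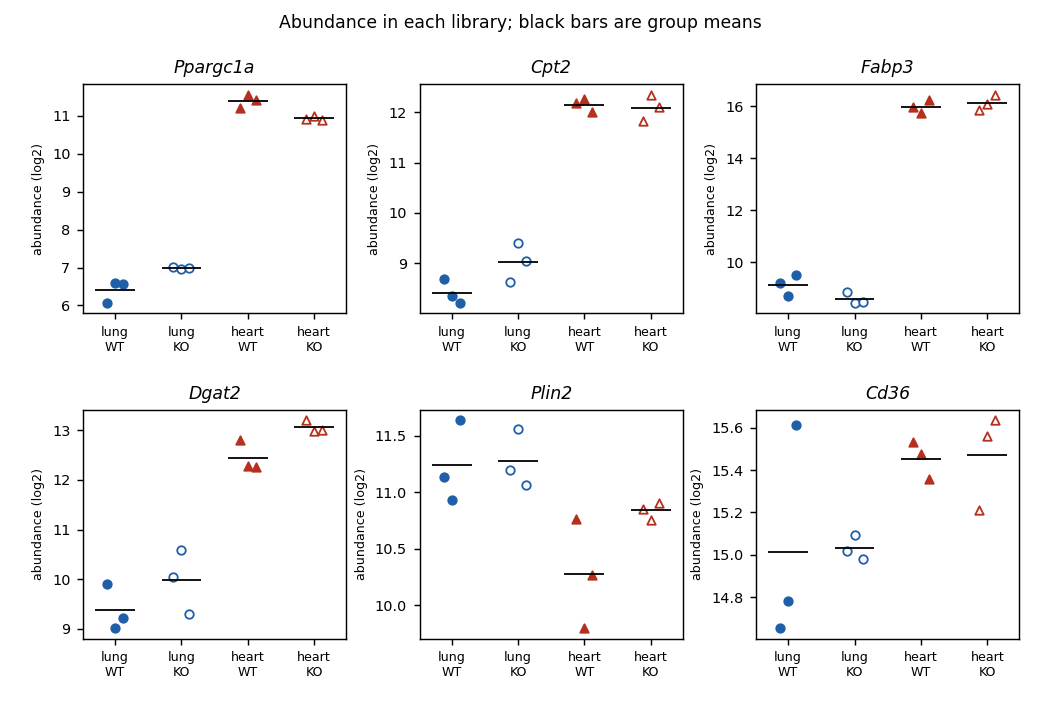
Normalised abundance (log2, vertical axes, which do not start at 0) in each library for the 5 genes with an unadjusted p under 0.05 in lung or heart, and for Cd36. Points are libraries and black bars group means of 3; for Ppargc1a the KO lungs lie above the WT lungs and the KO hearts below the WT hearts.

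The genotype effect in lung less that in heart was tested across 17666 genes in all 12 libraries. None of the 40 passed at an adjusted p under 0.05, beside 0.00566% of genes, and 5 had an unadjusted p under 0.05 (limma), beside 7.88%. These were Ppargc1a at 1.04 (SE 0.22), Mlycd at −0.90 (SE 0.37), Cpt2 at 0.68 (SE 0.28), Fabp3 at −0.70 (SE 0.32) and Esrrg at 0.75 (SE 0.35). Ppargc1b had a larger estimate, 1.18, with a 95% confidence interval from −0.30 to 2.66. Mlycd lay between 8.11 and 8.61 in KO lungs and between 8.51 and 9.19 in WT lungs, and between 11.44 and 11.86 in KO hearts and between 10.64 and 11.73 in WT hearts. Esrrg lay between 5.47 and 6.38 in KO lungs and between 10.12 and 10.49 in KO hearts.

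A further 94 genes of lipid metabolism, written as a list beside the 40, give the setting. In WT mice 12 of the 93 tested were higher and 47 lower in lung, and in KO mice 14 and 50 of 92, with the backgrounds given above. Of 17 other mitochondrial oxidation genes, 16 were lower in WT lung, beside 20.5% of all genes, with a median of −1.91. The exception was Acad10 at 0.66 (adjusted p = 0.0644). Of 7 genes of fatty acid synthesis, 4 were higher in WT lung (Scd1 by 3.42, Scd2 by 3.28, Acly by 1.47 and Srebf1 by 0.97), beside 29.7% of all genes, and none lower. In KO mice the same 4 passed, Scd1 by 1.70, Scd2 by 3.46, Acly by 1.08 and Srebf1 by 0.67. Scd1 stood at 14.10, 12.73 and 10.70 in WT hearts, Acly at 12.38, 11.02 and 10.48, and the adipocyte marker sums given above had the same order in these libraries; their part in the result was not tested. Acsl5, another acyl-CoA synthetase, had the largest rise in WT mice at 4.20 (3.60 in KO mice), and Slc27a3 was higher by 2.22 (2.56 in KO mice). Angptl4, an inhibitor of lipoprotein lipase, was higher by 2.94 in WT mice, whose hearts spread from 4.98 to 7.59, and by 0.49 in KO mice (adjusted p = 0.114), where it did not pass. The largest falls were in Esrrb, a receptor related to Esrra that was at 0 in 1 WT lung, the lipid droplet genes Fitm1 (−7.14) and Plin5 (−5.23), Rxrg (−5.78) and Acsl6 (−4.11). Between genotypes 1 of the 94 passed, in heart, beside 0.085% of all genes in heart and 0.0665% in lung. It was Ucp3, a mitochondrial carrier of muscle, at 8.96, 8.29 and 8.24 in WT hearts and 9.999, 10.83 and 10.41 in KO hearts, a difference of 1.92 (SE 0.25, adjusted p = 0.0385). Cpt1a, the isoform of CPT1 that complements the member Cpt1b, stood at 10.68, 10.88 and 10.76 in WT hearts and at 11.46, 11.68 and 11.48 in KO hearts, a difference of 0.77 (SE 0.12, adjusted p = 0.123) that did not pass.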

How the data were processed

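RNA from heart and lung of 6 mice was sequenced on strand-specific libraries, 3 per tissue and genotype. The authors quantified reads with Salmon 1.10.0 against GENCODE vM33 (mm39) and tested genes with limma-voom (3.54.2 in the paper, 3.42.2 in the submitters' processing notes). The values deposited by the authors are on a log2 scale, normalised abundance per gene and log2(1 + estimated count) per transcript. Genes with 1 transcript differ from it by a constant per library, from −0.63 to 0.80.

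Here the gene values were used as deposited. A gene entered a test if 3 or more libraries of the comparison reached 3.46, which is 10 units of abundance plus 1 on this scale. The tests used limma 3.58.1 (R 4.3.3; lmFit, eBayes with a variance trend), with Benjamini-Hochberg adjustment over all genes tested. Calls needed a group mean of 6 or more, a 1.5-fold difference and an adjusted p below 0.05. For the difference between tissues of the genotype effect, the adjusted p alone was used. Fold changes are on the log2(value + 1) scale and understate those of low genes. P-values rest on the spread between 3 mice a group, moderated by the spread of the other genes tested. The main comparisons between tissues left out the pairing by mouse. The tests were checked on simulated data, with values drawn independently for each gene and library. Shifts shared by many genes of a library were not simulated, so the check does not cover them. Levels per length divide transcripts' estimated counts by their GENCODE vM39 length. Near-identical stretches were searched with blastn 2.17.0 (at least 95% identity over at least 400 bases). The search covered both strands and did not separate copies of a gene from other genes that share sequence with it.

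Members, roles, the further lists and the tests were chosen with earlier results of these data known. Values in every library are given for members with an unadjusted p under 0.05 between genotypes, the largest and smallest tissue difference of each role, those higher in lung, the 4 regulators and those with a near-identical stretch in another gene. Of the further genes, up to 5 in each direction between the tissues of WT mice and any called between genotypes are named. Lpl, Ppargc1b in the last comparison, Scd2, Acly, Srebf1, Acad10, Acaca, Acss2 and Cpt1a were added after their values were seen. Heart and lung share mice. Correlations of the deviations of 17666 genes between lung and heart of a mouse were 0.049, 0.136 and −0.024 in WT and 0.020, −0.068 and −0.036 in KO mice. The pairing comes from the mouse identifiers. WT and KO replicates share only a number.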

Additional observations from a re-analysis of the deposited data

Results flagged for a closer look

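Ppargc1a was the only one of the 40 genes whose KO libraries all lay on one side of the WT libraries in lung and on the other side in heart. Over all genes, KO and WT libraries did not overlap for 12.8% in lung and 13% in heart. The share of all genes with opposite sides in the tissues was not counted, so this pattern has no background here. For Ppargc1a the genotype effect in lung less that in heart was 1.04 (SE 0.22, 95% confidence interval 0.56 to 1.53). Its adjusted p was 0.333 over 17666 genes (limma), so the difference did not pass. Over 22 alternatives it ran from 0.87 to 1.14, with adjusted p from 0.175 (without WT lung replicate 2) to 0.672. Groups of 3 libraries were too small for a check of single values that stand apart.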

How the results depend on the processing

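No alternative moved a count of called genes by more than 1.5 times or turned the direction of a called gene. The count of the 40 genes called between WT lung and WT heart ran from 35 to 38 over 20 alternatives (35 to 38 in KO mice), and was 0 in all alternatives of the genotype comparisons (18 in lung and 17 in heart) and of the difference between tissues (22). The mouse as a replicate block gave 37 genes in WT and 36 in KO mice, as without it, and the replicate number as a block between genotypes, which are different mice that share only a number, gave 0 in both tissues, so the block changed no count. The lowest adjusted p of a member in any alternative was 0.481 in lung (Ppargc1a, all 12 libraries in 1 model), 0.212 in heart (Dgat2, replicate block) and 0.175 for the difference (Ppargc1a). Single genes changed sides of the thresholds 12 times between the tissues, 2 of them losing the call (Plin2 in WT mice, without WT lung replicate 3 or WT heart replicate 2). Cd36 passed in WT mice without WT lung replicate 3. Summed levels per length of the 40 genes, in TPM computed from the transcripts, fell with 200 bases taken from each length. They fell from 1165 to 543 in WT lungs, from 2072 to 1108 in KO lungs, from 15567 to 10797 in WT hearts and from 14141 to 8852 in KO hearts. The fall in WT lungs was smaller than the SD between these libraries, which does not measure the effect of the setting. Taking bases off raises the weight of short transcripts in the total, and which of them lowered the sums was not tested. TPM are parts of all transcripts of a library, and Rn7s1 took 2.10 to 34.0% of the summed abundance in lungs. These sums are therefore not compared between genotypes. The text gives shares among the 40 genes, of which that of Fabp3 in WT hearts went from 24.2 to 27.1%. Estimated counts are known only through the deposited values, and Slc27a6 in heart and Ppargc1b, Bdh1 and Esrrg in lung rest on low ones.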
